A study of Mus musculus with 4 samples.

Results

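Motile cilium axoneme genes encode the parts of the beating hair-like organelle of airway and other ciliated epithelia. They were picked by symbol from the 23281 genes of the deposited expression table: the axonemal dynein heavy chains, the intermediate chains, the tektins, the radial spoke head genes, 4 sperm-associated antigen genes and 17 further named genes. Of these, 32 were listed under the picked spelling and 14 under an older symbol of the same gene (Dnahc for Dnah, Dnalc for Dnal and Rtdr1 for Rsph14), which gave 46 genes. Dnah3, Dnah7c, Dnah12 and Dnah14 had no row under any symbol and were not analysed here. RNA was sequenced from 3 libraries of mouse olfactory horizontal basal cells (HBCs), from wildtype mice, grown in culture to passage 3 with no sort named. The other library was of microdissected respiratory basal cells (RBCs), sorted for TdTomato from KRT5-CreER;Ai9-fl(stop)TdTomato mice. In that strain the basal keratin promoter drives an inducible Cre recombinase, which removes a stop before the red reporter, and descendants of a recombined cell keep the reporter. The sources used here do not give the age, the number of animals pooled or the time between induction and sorting. Tissue of origin, culture, sort and strain differ together between the groups and cannot be told apart.

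The axoneme is a ring of microtubule doublets around a central pair. Outer and inner dynein arms on the doublets are the motors, radial spokes and the central pair regulate them, and tektins are filaments inside the doublet wall. In airway epithelium these genes are transcribed in multiciliated cells, which descend from basal cells and are set up by the transcription factor Foxj1 together with RFX factors. Basal cells themselves lack motile cilia, although most dividing or resting cells can form a single non-motile primary cilium that shares the transport machinery but not the dynein arms.

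RFX factors bind a paired, inverted recognition site called the X-box, and the promoters of the member genes were therefore searched for it. RefSeq promoter windows (GRCm38.p6, 250 bases before to 50 bases after each start site) were found for 41 of the 46 genes, with 46 windows in all. Lrrc6, Rsph1, Rsph4a and Tppp3 had no window, and the symbol Spag6 was ambiguous. The windows below are shown because they hold an X-box match before the start site of a gene described in the results. Capitals mark the match, with up to 35 bases on either side, written 5′ to 3′ in the direction of transcription.
Dynlrb2, chr8:116504929-116505011, plus strand: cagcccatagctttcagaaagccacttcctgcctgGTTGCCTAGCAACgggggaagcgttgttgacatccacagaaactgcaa
Hydin, chr8:110266921-110266976, plus strand: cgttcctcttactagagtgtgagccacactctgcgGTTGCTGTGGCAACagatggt
Dnaic2, chr11:114727351-114727418, plus strand: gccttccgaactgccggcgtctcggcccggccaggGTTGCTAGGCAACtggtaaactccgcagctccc
Dnaic1, chr4:41569740-41569793, plus strand: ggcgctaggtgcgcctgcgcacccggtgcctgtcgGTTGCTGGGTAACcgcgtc
Spag16, chr1:69826832-69826915, plus strand: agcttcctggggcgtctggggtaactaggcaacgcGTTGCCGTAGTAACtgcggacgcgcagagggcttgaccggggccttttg
1110017D15Rik, chr4:41507765-41507817, minus strand: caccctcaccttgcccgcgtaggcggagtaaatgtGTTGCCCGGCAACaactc
Tekt2, chr4:126325670-126325752, minus strand: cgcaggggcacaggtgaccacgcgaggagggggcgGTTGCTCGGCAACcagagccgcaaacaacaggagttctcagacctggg
Lrrc23, chr6:124779844-124779926, minus strand: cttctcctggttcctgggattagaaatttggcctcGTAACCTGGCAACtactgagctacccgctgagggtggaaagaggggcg
The match in Dynlrb2 lay 51 to 39 bases before the start site and that in Hydin 21 to 8 bases before it. Dnaic2 (33 to 21), Dnaic1 (19 to 7) and 1110017D15Rik (18 to 6) also held theirs close to the start, and Tekt2 held a match 29 to 17 or 71 to 59 bases before its 2 annotated start sites. Matches in Spag16 (103 to 90) and Lrrc23 (164 to 152) lay farther upstream. Rsph3b had a match after its start site.

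An X-box, searched on both strands with a spacer of up to 3 bases, was present in 10 of the 46 member windows (21.7%, 9 genes) and in 1.53% of all 32851 windows. GTTGCC, an arm of that site, was present in 19 member windows (41.3%, 18 genes) and in 12.5% of all windows. These counts overlap, since most X-box matches contain that arm. The forkhead core GTAAACA was present in 4 windows (8.70%), those of Ak7, Dnah17, Sntn and Tekt3, and in 3.65% of all windows. CCAAT stood in 39.1% of member windows against 37.4% of all, and TATAAA in 4.35% against 13.6%. A further 6 patterns were counted, all variants of the RFX site that overlap those above. GTTACC stood in 23.9% of member windows against 7.21% of all, GTTGCCA in 17.4% against 4.38% and TTGCCATGG in 2.17% against 0.740%. The variants with a choice of bases stood in 69.6% against 25.1% for a looser arm and 17.4% against 0.545% for a stricter X-box. Another form of the inverted pair, tighter at some positions and looser at others, stood in 4.35% against 0.718%. The 11 patterns were chosen with the windows in view. These shares are descriptions without a test, and a match does not show that a factor binds there.

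All expression levels below are scaled FPKM, that is, the deposited fragments per kilobase of transcript divided by 1 scaling factor per library, and they can be compared between genes as amounts per length. Deposited values summed to 8377232 to 10855996 per HBC library and 9877606 for RBCs, and 15093 to 15308 and 17713 genes were above 0. The sources used here give no number of reads. Whether separate animals gave the HBC libraries is not in the labels, so p-values reflect a spread among samples that may be technical only. A gene was tested with limma when its RBC value and its HBC mean averaged 1 or more. A call required both a Benjamini-Hochberg adjusted p under 0.05 and at least a 2-fold change. With 2 residual degrees of freedom, the spread came only from the 3 HBC libraries, and the lone RBC library was assumed to vary alike. Log2 changes are of scaled FPKM + 1 (RBC minus HBC), which understates the change of low genes. No fold is given where the HBC values are 0 or near the worth of a single fragment.

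Axoneme genes were low or listed at 0 in the cultured HBCs and expressed in the RBC library. Of the 46 genes, 44 passed the filter on low values, 39 were called towards RBCs, 0 towards HBCs and 5 had no call. Across the 16440 genes of the whole fit, the share called was 34.2% towards RBCs and 12.8% towards HBCs. No tested axoneme gene had a log2 change below 0, so the number higher in HBCs was 0 at an unadjusted p under 0.05 too. The median log2 change was 6.08 for the 44 genes and 0.45 for all genes tested. Of the 39 calls, 8 are of genes listed at 0 in all 3 HBC libraries, for which the filter fixes the call and no p is given. Without such genes the medians were 5.88 and 0.29. In total 29 of the 46 genes had an HBC mean below 1, and such genes pass the filter only through their RBC value. The 34.2% above includes 11704 genes with an HBC mean of at least 10, of which 18.6% were called higher in RBCs. Among tested genes with a lower HBC mean the share was therefore well above 34.2%. Most axoneme genes (39 of 46) had an HBC mean below 10, so 34.2% is too low a comparison for their count. Of the calls over the whole fit 72.8% were towards RBCs, and this share became 44.4% with equal medians and 46.5% with quantile normalization. Under these scalings the median of all genes moved to -0.32 and -0.14, and that of the axoneme genes to 5.56 and 5.01.

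The RBC library held all 46 genes above 0, whereas HBC libraries 1, 2 and 3 held 24, 29 and 29. Among all genes of the table, 64.8%, 65.8%, 65.3% and 76.1% were above 0 in HBC libraries 1, 2 and 3 and the RBC library. The levels of the 46 genes added up to 785, 733 and 771 in the HBC libraries and to 11560 in RBCs, or 0.00790%, 0.00744% and 0.00757% against 0.124% of all levels in the library. Most of the HBC sum came from 7 genes with an HBC mean of at least 10, and the sums without them were 27.8, 19.6 and 31.0 in HBCs and 7881 in RBCs. In 45 of the 46 genes the RBC value lay above every HBC value, the exception being Rsph3b. This held for 58.6% of all tested genes. The RBC value was a single library, and in bulk RNA fewer cells of a type and less RNA per cell cannot be told apart.

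**Figure D1:**
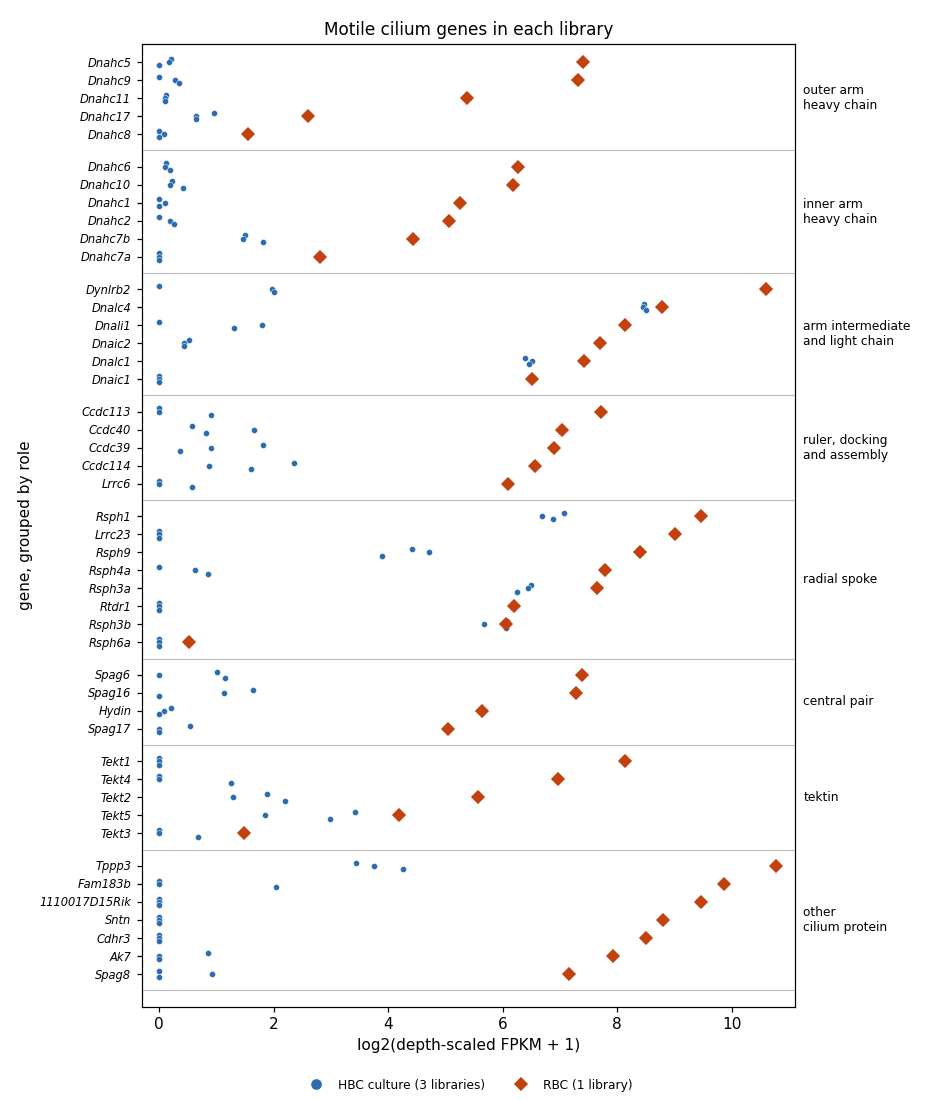
Levels as log2(scaled FPKM + 1) (x axis) of each axoneme gene (y axis, grouped by role), with a blue point for each of the 3 HBC libraries and a red diamond for the RBC library. The RBC value lies above every HBC value for 45 of 46 genes, with Rsph3b as the exception.

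The RBC library also held markers of other cell types. Across all tested genes 34.2% were called towards RBCs and 12.8% towards HBCs. The share towards RBCs was 18.6% for genes with an HBC mean of at least 10 and well above 34.2% for lower genes. Whether the lists below differ from these shares was not tested. Among leukocyte, fibroblast and endothelial markers 31 were tested, of which 26 were called higher in RBCs and 1, Egfl7, higher in HBCs (109 ± 27.1 scaled FPKM, SD, n = 3, against 19.3, a call lost without HBC library 2). With quantile normalization, the calls towards RBCs fell from 10 to 7 for leukocytes (10 tested), from 9 to 5 for fibroblasts (8 tested) and from 7 to 2 for endothelium (8 tested), where 2 genes were then called higher in HBCs. With a pseudocount of 0.1, 4 endothelial genes were called higher in RBCs. The levels of all these markers added up to 24130 in RBCs, against 302, 297 and 339 in HBC libraries 1, 2 and 3. By type, the sums ran from 41.5 to 48.7 in HBCs against 16090 in RBCs for leukocytes, from 149 to 165 against 7940 for fibroblasts, and from 87.7 to 141 against 104.6 for endothelium. In all 3 HBC libraries 7 of the 32 markers were listed at 0: Tyrobp, Fcer1g and Csf1r (leukocytes), Mfap5 (fibroblasts) and Tie1, Emcn and Cldn5 (endothelium). Another 5 averaged at least 10 in HBCs: Egfl7, Fbln1 (101.3 ± 4.077, SD, n = 3), Dcn (43.99 ± 11.79), Lyz2 (21.53 ± 3.001) and Cd74. None of the 32 markers was at 0 in RBCs. Of all 23281 genes, 6848 were at 0 in all HBC libraries and 5568 in RBCs. Markers of olfactory sensory neurons, which bear non-motile cilia, added up to 270 to 305 in HBCs and 6141 in RBCs, with 12 of 13 tested genes called higher in RBCs. Of 15 tested secretory and gland genes, 14 were called higher in RBCs and 1, lactoferrin (Ltf, 119200 ± 1162 against 18090), higher in HBCs, a call lost with values as deposited. Basal keratin 5 was abundant in both groups (18630 ± 369 in HBCs, SD, n = 3, and 26490 in RBCs). Krt17 was the basal gene called higher in HBCs (18010 ± 793 against 8390, but below 2-fold with quantile normalization, log2 change -0.86, and with values as deposited, -0.99), and 9 of 12 basal genes were called higher in RBCs, with Aqp3 (21480) and Krt15 (17200) next to Krt5. The most abundant in RBCs were Gng13 (1502), Omp (1500) and Stoml3 (965) among neuron genes and Bpifa1 (439400), Obp1a (99320) and Cyp2f2 (99290) among secretory genes. Lyz2 (14770), Cd74 (1001) and Tyrobp (64.2) led the leukocyte markers, Dcn (6902), Col1a1 (361) and Col1a2 (350) those of fibroblasts and Cldn5 (23.7), Egfl7 and Emcn (12.2) those of endothelium. The part of other cells in the axoneme result was not tested.

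The genes that mark motile cilia stood far apart between the groups. Dynlrb2, a roadblock light chain of dynein, was at 0, 2.94 and 3.00 scaled FPKM in HBC libraries 1, 2 and 3 and at 1556 in RBCs. Dnahc5, the outer arm heavy chain often mutated in primary ciliary dyskinesia, was at 0.151, 0.121 and 0 and at 169. Tekt1 was listed at 0 in every HBC library and stood at 280 in RBCs. Hydin, a central pair protein, was at 0.149, 0.0600 and 0 in HBCs and at 48.9 in RBCs. None of these HBC values came near the RBC value. The log2 changes were 9.28 for Dynlrb2 (limma SE 1.15, adjusted p = 0.0111), 7.29 for Dnahc5 (SE 0.109, adjusted p = 0.000223) and 5.55 for Hydin (adjusted p = 0.000340). With a pseudocount of 0.1 the Dynlrb2 call was lost (adjusted p = 0.0573, range 0.00160 to 0.0573 over the alternatives).

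Outer arm heavy chains, the motors that set beat frequency, were led by Dnahc5 and Dnahc9. Dnahc9 was at 0, 0.207 and 0.271 scaled FPKM in HBC libraries 1, 2 and 3 and at 159 in RBCs (log2 change 7.11, limma adjusted p = 0.000664). Dnahc11, another outer arm heavy chain, was at 0.0866, 0.0692 and 0.0684 against 40.7 (5.28, adjusted p = 4.4e-06). Neither gene reached 1 in an HBC library. The deposited HBC values of Dnahc11 were 0.07305, 0.07259 and 0.073. The spread behind its small p-value is therefore mostly that of the scaling factors and not variation between samples. The heavy chains Dnahc17 and Dnahc8, best known from sperm flagella, were the lowest of the 5 in RBCs. Dnahc17 stood at 0.949, 0.573 and 0.563 in HBCs and at 5.10 in RBCs (1.85, adjusted p = 0.00702). Its change fell below 2-fold with a pseudocount of 5 (log2 change 0.83) and turned to -0.33 with quantile normalization. Dnahc8 was at 0, 0.0650 and 0 against 1.93 and failed the filter.

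Inner arm heavy chains, which shape the bend of the cilium, were all called higher in RBCs (6 of 6). The share was 34.2% of all tested genes, and well above that among genes with an HBC mean below 10, as all 6 had. Dnahc6 was at 0.0933, 0.0750 and 0.148 scaled FPKM in HBC libraries 1, 2 and 3 and at 76.6 in RBCs (log2 change 6.13, limma adjusted p = 5.3e-05). Dnahc10 was at 0.168, 0.135 and 0.332 against 71.9 (5.91, adjusted p = 0.000451). For Dnahc1 the HBC values were 0, 0.0737 and 0 and the RBC value was 37.0 (5.21, adjusted p = 0.000121), while for Dnahc2 they were 0, 0.138 and 0.204 against 32.5 (4.92, adjusted p = 0.000777). The RBC value lay above every HBC value for each of these 4 genes, as it did for 58.6% of all tested genes. Dnahc7a and Dnahc7b are near-identical copies, so the split of fragments between them is uncertain. Dnahc7b was the heavy chain with the highest HBC values (1.82, 1.77 and 2.50 against 20.8 in RBCs, 2.85, adjusted p = 0.00345), and its call was lost with quantile normalization (0.48, adjusted p = 0.153, range 0.00130 to 0.153). Dnahc7a was listed at 0 in HBCs and at 5.97 in RBCs.

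The length of these transcripts allowed a reading of how little signal the HBC values hold. For the 13 axoneme genes with a transcript of at least 6 kb in GENCODE M21, the deposited value was multiplied by the transcript length in kilobases. Of 39 HBC values 13 were 0, and of the 26 above 0 the product was below 10 in 22. In 18 of these 22 it lay within 2% of a whole number. Dnahc5 gave products of 1.99, 1.99 and 0 for HBC libraries 1, 2 and 3, against 2804 for RBCs. Hydin gave 1.99, 0.992 and 0 against 818, and Dnahc9 gave 0, 2.99 and 3.99 against 2322. If a unit of this product is a fragment, the HBC values of these genes rest on a few fragments each, and the spread between HBC libraries is that of such small numbers. Dnahc17 (12.0, 8.99 and 8.995 against 80.9) and Dnahc7b (18.9, 22.9 and 32.9 against 271) held more. In RBCs the products ran from 34.1 for Dnahc8 to 2804 for Dnahc5. The length limit was chosen after the values were seen: over all 30 genes with an HBC mean below 10 and a value above 0, the smallest product lay between 0.8 and 1.6 in 11.

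Intermediate and light chains, which anchor and regulate the motors, divided into genes near 0 in HBCs and genes expressed there. Dnaic2, an outer arm intermediate chain, was at 0.435, 0.350 and 0.345 scaled FPKM in HBC libraries 1, 2 and 3 and at 207 in RBCs (log2 change 7.24, limma adjusted p = 4.9e-05). Deposited HBC values of Dnaic2 were 0.3669, 0.3665 and 0.3682, so the spread behind its small p-value is mostly that of the scaling factors. Its partner Dnaic1 stood at 89.8 in RBCs and was listed at 0 in each HBC library. Dnali1, an inner arm light intermediate chain, was at 0, 2.47 and 1.47 against 281 (7.10, adjusted p = 0.0123), and its call was lost with a pseudocount of 0.1 (adjusted p = 0.0687) and without HBC library 3 (0.0599), with a range of 0.00180 to 0.0687. The light chains Dnalc1 and Dnalc4 were well expressed in both groups and were not called. Dnalc1 was at 83.2, 90.6 and 87.6 in HBCs (87.1 ± 3.70, SD, n = 3) and at 170 in RBCs, a 1.95-fold difference (adjusted p = 0.00416) just under the 2-fold minimum, which it passed with equal sums (log2 change 1.06). For Dnalc4 the values were 355, 347 and 363 (355 ± 7.76) against 439, a 1.24-fold difference (log2 change 0.31, SE 0.034, adjusted p = 0.00884) that turned to -0.44 with equal medians. Their RBC values lay above every HBC value, but below the size a call required.

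Central pair genes and the genes that build or attach the arms were called higher in RBCs throughout (9 of 9), against 34.2% of all tested genes. None of them had an HBC mean of at least 10, and among such low genes the share was well above 34.2%. Spag6 was at 1.03, 0 and 1.22 scaled FPKM in HBC libraries 1, 2 and 3 and at 166 in RBCs (log2 change 6.66, limma adjusted p = 0.00658), and its call was lost with a pseudocount of 0.1 (adjusted p = 0.0506, range 0.000850 to 0.0506). The symbol has a near-identical copy, Spag6l, and the split of fragments is uncertain. Spag16 was at 2.11, 1.20 and 0 against 155 (6.36, adjusted p = 0.0125), a call lost without HBC library 2 (0.0628) and with a pseudocount of 0.1 (0.0726, range 0.00185 to 0.0726). Spag17, a large central pair protein, was at 0.455, 0 and 0 against 32.2 (4.87, adjusted p = 0.00325). No central pair gene reached 3 in an HBC library.

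Ccdc39 and Ccdc40 form the molecular ruler that sets the spacing of arms and spokes along the doublet. Ccdc40 was at 0.486, 2.15 and 0.770 scaled FPKM in HBC libraries 1, 2 and 3 and at 131 in RBCs (log2 change 6.02, limma adjusted p = 0.00653). Ccdc39 was at 2.53, 0.868 and 0.284 against 118 (5.86, adjusted p = 0.0114), a call lost without HBC library 2 (0.0625, range 0.00230 to 0.0625). The highest HBC value came from library 2 for Ccdc40 and from library 1 for Ccdc39. Ccdc114, which docks the outer arm, was at 4.13, 0.829 and 2.05 against 93.4 (4.95, adjusted p = 0.0164), a call that did not hold without HBC library 3 (0.0762, range 0.00451 to 0.0762). Ccdc113 (0, 0 and 0.865 against 208) and the arm assembly factor Lrrc6 (0, 0 and 0.490 against 66.9) had adjusted p = 0.00379 and 0.00259.

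Radial spoke genes ranged from well expressed to listed at 0 in HBCs. Their levels added up to 309, 264 and 272 scaled FPKM in HBC libraries 1, 2 and 3, below the 439, 443.5 and 455 of the arm intermediate and light chains. Rsph1, a spoke head protein, was at 133, 102 and 117 scaled FPKM in HBC libraries 1, 2 and 3 (117 ± 15.6, SD, n = 3) and at 708 in RBCs, 6.05-fold higher (log2 change 2.60, SE 0.193, limma adjusted p = 0.00419). Rsph9, another head protein, was at 20.4, 25.1 and 13.8 (19.8 ± 5.68) against 337, a 17.04-fold difference (4.06, adjusted p = 0.00785). Both genes were thus expressed in every HBC library. Their RBC values lay above every HBC value, as for 58.6% of all tested genes. In contrast, the spoke head gene Rsph4a was at 0, 0.541 and 0.801 against 220 (7.30, adjusted p = 0.00292), and the spoke genes Lrrc23 (514 in RBCs) and Rtdr1 (72.6) were listed at 0 in all 3 HBC libraries. Rsph6a, a paralog of Rsph4a known from testis, was listed at 0 in HBCs and at 0.430 in RBCs and failed the filter.

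The spoke stalk genes Rsph3a and Rsph3b are near-identical neighbours and gave different values, although the split of fragments between them is uncertain. Rsph3a was at 89.2, 86.4 and 75.6 scaled FPKM in HBC libraries 1, 2 and 3 (83.7 ± 7.19, SD, n = 3) and at 200.2 in RBCs, 2.39-fold higher (log2 change 1.25, SE 0.130, limma adjusted p = 0.00786). Its change was below 2-fold with equal medians (0.51) and quantile normalization (0.87). Rsph3b was at 66.6, 50.1 and 65.4 (60.7 ± 9.18) against 65.6, a 1.08-fold difference that was not called (0.12, SE 0.233, adjusted p = 0.661). It was the only axoneme gene whose RBC value lay within the HBC range. Its direction turned with equal medians (-0.61), with quantile normalization (-1.06, called higher in HBCs, adjusted p = 0.0111, range 0.0111 to 0.908) and without HBC library 2 (-0.01). The difference between the 2 genes was not tested.

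Tektins were the most uneven group, with 3 of 5 called higher in RBCs, against 34.2% of all tested genes. Beside Tekt1, Tekt4 was at 0, 0 and 1.39 scaled FPKM in HBC libraries 1, 2 and 3 and at 125 in RBCs (log2 change 6.56, limma adjusted p = 0.00886, and 0.05 with a pseudocount of 0.1, where it was not called, range 0.00132 to 0.05). Tekt2 was at 2.70, 1.44 and 3.58 against 46.6 (3.78, adjusted p = 0.0108), a call lost without HBC library 1 (0.0593, range 0.00343 to 0.0593). Tekt5, known from sperm flagella, was at 9.71, 2.60 and 6.88 (6.40 ± 3.58, SD, n = 3) against 17.3, a 2.70-fold difference that was not called (1.44, SE 0.813, adjusted p = 0.210) and turned to -0.91 with quantile normalization. Tekt3 was at 0, 0 and 0.601 against 1.81 and was not called either (1.26, adjusted p = 0.0720). The order of levels in RBCs was thus Tekt1, Tekt4, Tekt2, Tekt5 and Tekt3, whereas in HBCs Tekt5 had the highest mean. With a single RBC library, neighbours in the RBC order cannot be compared with a spread.

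The remaining genes of cilium-associated proteins included the highest RBC levels of all 46. Tppp3, which promotes tubulin polymerization, was at 9.88, 12.4 and 18.1 scaled FPKM in HBC libraries 1, 2 and 3 (13.5 ± 4.18, SD, n = 3) and at 1758 in RBCs, 131-fold higher (log2 change 6.97, SE 0.414, limma adjusted p = 0.00284). Fam183b was at 0, 0 and 3.14 against 938 (9.19, adjusted p = 0.0119). Its call was lost without HBC library 1 (0.0587), without HBC library 2 (0.0565) and with a pseudocount of 0.1 (0.0504), with a range of 0.00193 to 0.0587. HBC library 3 alone held a value above 0 for this gene. The ciliated epithelium gene 1110017D15Rik (704 in RBCs), Sntn (445), a protein of the ciliary tip, and Cdhr3 (360.3), a cadherin of ciliated airway cells, were listed at 0 in every HBC library. The adenylate kinase Ak7 was at 0.804, 0 and 0 against 242 (7.64, adjusted p = 0.00327), and Spag8 was at 0, 0.890 and 0 against 141 (6.85, adjusted p = 0.00453).

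In the cultured HBCs, then, a small set of axoneme genes stood out from the rest. Only 7 of 46 had an HBC mean of at least 10 scaled FPKM (Dnalc4, Rsph1, Dnalc1, Rsph3a, Rsph3b, Rsph9 and Tppp3), 10 lay between 1 and 10, and 29 lay below 1. In the RBC library 41 of 46 reached 10. Of the 7 genes, 4 were called higher in RBCs (Tppp3, Rsph9, Rsph1 and Rsph3a), with 2.39-fold to 131-fold differences. Among all 11704 tested genes with an HBC mean of at least 10, 18.6% were called higher in RBCs. This grouping was made after the values were seen.

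**Figure D2:**
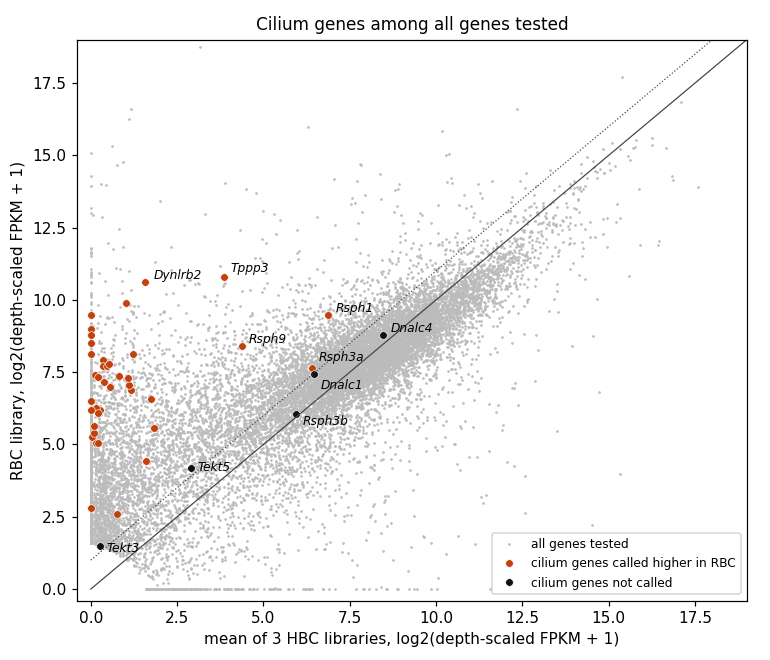
Mean of the 3 HBC libraries (x axis) against the RBC library (y axis), both as log2(scaled FPKM + 1), for all 16440 genes tested (grey) and the 44 tested axoneme genes (red, called higher in RBCs; black, not called). The solid line marks equal levels and the dotted line a 2-fold difference. Most axoneme genes lie near the left edge, far above the lines, and Rsph3b (60.7 and 65.6 scaled FPKM) lies next to the line of equal levels.

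Further lists of ciliary genes were fitted alongside and share no member with the genes above. For comparison, 34.2% of all tested genes were called towards RBCs and 12.8% towards HBCs. Towards RBCs the share was 18.6% for an HBC mean of at least 10 and well above 34.2% for lower means. Of 49 tested genes of other axoneme and ciliated cell proteins, 43 were called higher in RBCs, 0 in HBCs and 6 were not called (median log2 change 4.75). Most abundant in RBCs were the tubulins Tubb4b (6825 ± 229 scaled FPKM in HBCs, SD, n = 3, against 5301) and Tuba1a (1218 ± 79.5 against 2288) and the centrin Cetn2 (949 ± 46.5 against 803), none of which was called. Tuba1a passed the 2-fold minimum with equal sums (log2 change 1.01) and quantile normalization (1.24), and Tubb4b passed it as higher in HBCs with equal medians (-1.11). Docking complex and nexin-dynein regulatory complex genes, the latter linking neighbouring doublets, were called higher in RBCs in 12 of 13 (median 5.10). Lrrc48 (38.4 ± 5.43 against 395, 10.3-fold) and Ccdc164 (1.83 ± 0.939 against 201) led this list with Gas8, which was not called (292 ± 39.3 against 271).

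Dynein arm assembly factors, cytoplasmic proteins that fold the arms before they enter the cilium, were mixed. Shares called over the whole fit were 34.2% towards RBCs and 12.8% towards HBCs. Of 14 tested, 7 were called higher in RBCs, 1 in HBCs and 6 were not called, with a median log2 change of 0.88 (0.23 without genes at 0 in all HBC libraries). The median was 0.15 with equal medians, where 5 were called higher in RBCs and 3 in HBCs, and 0 with quantile normalization, where 4 and 1 were. Without HBC library 2 the number called higher in RBCs was 4 too. The most abundant members in RBCs were not called: 1110004E09Rik (1140 ± 87.6 scaled FPKM in HBCs, SD, n = 3, against 661), and the chaperone partners Ruvbl2 (906 ± 25.3 against 622) and Pih1d1 (306 ± 39.7 against 358). With equal medians, 1110004E09Rik (log2 change -1.53, limma adjusted p = 0.00398) and Ruvbl2 (-1.29, adjusted p = 0.000699) were called higher in HBCs, and Pih1d1 turned to -0.51. Wdr92, which works with such chaperones, was called higher in HBCs (237 ± 24.7 against 109, log2 change -1.11, limma adjusted p = 0.0132). That call was lost without HBC library 3 (adjusted p = 0.0660) and, just under the 2-fold minimum, with values as deposited.

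**Figure D3:**
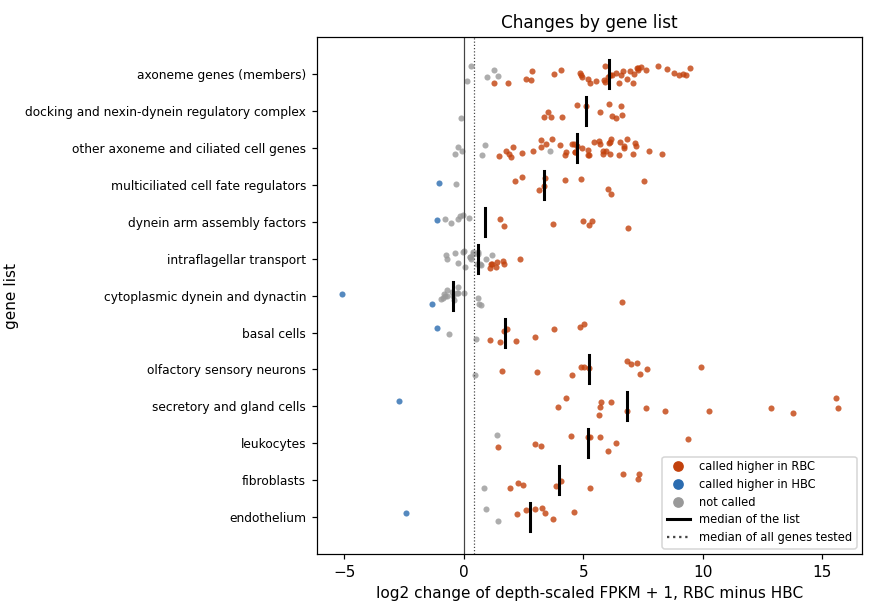
Log2 change of scaled FPKM + 1 (RBC minus HBC, x axis) of each tested gene in the axoneme genes and in each other list (y axis), coloured by call, with a black bar at the median of the list and a dotted line at the median of all genes tested (0.45). The medians are 6.08 for the axoneme genes, 4.75 for other axoneme and ciliated cell genes, 0.58 for intraflagellar transport and -0.45 for cytoplasmic dynein and dynactin.

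Regulators of the multiciliated cell fate were called higher in RBCs in 10 of 12 (median log2 change 3.37), against 34.2% of all tested genes. Foxj1, which switches on axoneme genes, was at 72.3, 65.6 and 70.6 scaled FPKM in HBC libraries 1, 2 and 3 and at 724 in RBCs, 10.4-fold higher (limma adjusted p = 0.000561). The HBC level of Foxj1 was thus well above 0 in every library, unlike that of most axoneme genes. Trp73, a p53 family factor upstream of Foxj1, was listed at 0 in HBCs and at 187 in RBCs. Rfx2 and Rfx3, factors of the X-box, were 4.47-fold (40.5 ± 3.01, SD, n = 3, against 181) and 5.70-fold (20.3 ± 0.922 against 115) higher. E2f4, a partner of the multiciliation program, was not called (614 ± 23.3 against 488), and it was called higher in HBCs with equal medians (log2 change -1.07). Its relative E2f5 was called higher in HBCs (397 ± 15.96 against 194, log2 change -1.03, adjusted p = 0.00263), but not with values as deposited (-0.92) or equal sums (-0.93).

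Intraflagellar transport genes, which serve motile and primary cilia alike, mostly had no call. Of 27 tested, 8 were called higher in RBCs, 0 in HBCs and 19 were not called. Most genes of the whole fit had no call either (8714 of 16440), with 34.2% called towards RBCs and 12.8% towards HBCs. The share towards RBCs was 18.6% for genes with an HBC mean of at least 10. Whether the list differs from these shares was not tested. The median log2 change of the 27 genes was 0.58, near the 0.45 of all genes. With equal medians, 1 was called higher in RBCs and 3 in HBCs, and the median was -0.16. Ift43 (530 ± 17.1 scaled FPKM in HBCs, SD, n = 3, against 793), Ift20 (709 ± 8.38 against 720) and Ift52 (560 ± 16.5 against 691) were the most abundant in RBCs and were not called. In total 26 of the 27 genes had an HBC mean of at least 10, against 7 of 46 axoneme genes.

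Cytoplasmic dynein and dynactin, the motor of transport within the cell, are the nearest relatives of the axonemal arms. Of 19 tested genes, 1 was called higher in RBCs, 2 in HBCs and 16, all below the 2-fold minimum, were not called (median log2 change -0.45). Over the whole fit 34.2% were called towards RBCs and 12.8% towards HBCs. The log2 change was below 0 for 14 of the 19 genes, against 6268 of all 16440 tested genes. With equal medians, 13 were called higher in HBCs. Dynlrb1, the counterpart of Dynlrb2 in most cells, was at 5190, 4586 and 4689 scaled FPKM in HBC libraries 1, 2 and 3 and at 2915 in RBCs. Its 0.605-fold difference was not called (log2 change -0.72, limma adjusted p = 0.0128) and passed the minimum as higher in HBCs with equal medians (-1.47). Dynlt3 was called higher in HBCs (5052 ± 164, SD, n = 3, against 2040, log2 change -1.31, and -0.97 with quantile normalization), as was Dynlt1b (91.7 ± 23.4 against 1.64), which has near-identical copies. The intermediate chain Dync1i1, best known from neurons, was the gene called higher in RBCs (0.411 ± 0.384 against 136). The most abundant in RBCs were Dynll2 (2075 ± 94.1 against 3235), Dynlrb1 and Dynlt3.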

How the data were processed

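RNA abundance was measured in 3 libraries of cultured HBCs and 1 of sorted RBCs. The authors deposited FPKM values in 1 table. STAR, Cuffnorm, Cufflinks 2.2.1 and the build mm9 are named in the submitters' processing notes. Gene annotation, filters and strandedness were not given in the sources used here. Columns were matched to samples by name. In genes below 4 in all 4 libraries and above 0 in both libraries of a pair, 12.4% to 26.0% of ratios lay within 2% of 1. The pairs with RBCs were the lowest (12.4% to 16.8%), and no expected share was computed. A fragment was taken to be worth the same in every library, that is, the values were taken to carry depth. They were divided by median-ratio factors (0.843, 1.05 and 1.07 for HBC libraries 1, 2 and 3 and 1.06 for RBCs) computed from 11134 genes that reached 10 in every library. Depth in reads is unknown, and no counting interval is given. A listed 0 may be a failed estimate.

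The two-sided test was limma's moderated test on log2(scaled FPKM + 1), with a trend of variance on the mean (limma 3.58.1, R 4.3.3), and p-values were adjusted over all 16440 tested genes by the Benjamini-Hochberg method. The procedure was tested on simulated data. Of the tested genes, 1256 were listed at 0 in all HBC libraries and all were called, which the filter fixes.

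The members and 12 other lists (213 entries, of which 210 were listed) were chosen with earlier results of these data known. Older symbols were matched through RefSeq synonyms after the table was seen. Every axoneme gene is named. From other lists the 3 highest in RBCs, genes called higher in HBCs, Foxj1 and Dynlrb1 were named. Rfx2, Rfx3, Trp73 and Dync1i1 were named after their values were seen. So were the leukocyte, fibroblast and endothelial markers listed at 0 or averaging at least 10 in HBCs. Alternatives were the scaling, pseudocount, filter, trend, fold minimum, each HBC library left out and the spelling of members. Promoter windows are from RefSeq (GRCm38.p6), and no coordinate of the mm9 build was used.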

Additional observations from a re-analysis of the deposited data

How the results depend on the processing

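The number of axoneme genes called higher in RBCs was 39, and it ran from 33 (pseudocount 0.1) to 41 (equal sums, or adjusted p alone) over the alternatives. It was 28 of 31 tested with only the members spelled as picked, an alternative chosen after seeing the data. Of the 39, 27 were called under every setting in which they were tested, among them 19 of the 31 with an HBC value above 0. The number called higher in HBCs was 0 except with quantile normalization, where it was 1 (Rsph3b). The median log2 change of 6.08 became 6.10 with values as deposited, 6.11 with equal sums, 5.56 with equal medians, 5.01 with quantile normalization, 8.27 with a pseudocount of 0.1, 4.12 with a pseudocount of 5, 5.97 with no filter on low values, 6.20 with a minimum of 5 and 6.56 with only the members spelled as picked. It ran from 6.05 to 6.19 when each HBC library was left out. Of all genes, 5621 were called higher in RBCs and 3225 with quantile normalization, while 2105 were called higher in HBCs against 4851 with equal medians, 3709 with quantile normalization and 4668 with adjusted p alone. Log2 changes turned in sign for Dnahc17 (-0.33) and Tekt5 (-0.91) with quantile normalization, for Dnalc4 with equal medians (-0.44) and for Rsph3b with equal medians (-0.61), with quantile normalization (-1.06) and without HBC library 2 (-0.01, with 0.18 at the other end of the range when each HBC library was left out). The cause of these changes was not tested. No paired analysis was possible, since the labels pair no HBC library with the RBC library. Depth in reads is unknown, so values near a single fragment limit what can be said of levels below about 1 in the HBC libraries.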

Other observations

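Within the RBC library the level of an axoneme gene was lower the longer its transcript. Spearman's rho between scaled FPKM and transcript length (GENCODE M21) was -0.61 over the 46 genes and -0.55 over the 35 genes other than heavy chains. This is a description across genes of 1 library, which share that library's depth and RNA quality, and genes are not independent replicates. The relation over all genes of the library was not computed, so it is not shown to be particular to axoneme genes. The short genes Tppp3, Dynlrb2 and Fam183b stood at 1758, 1556 and 938, whereas the highest heavy chain, Dnahc5, stood at 169 and the giant central pair gene Hydin at 48.9.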
